A study of Drosophila melanogaster with 6 samples.

Results

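The EGF receptor pathway was followed through 9 genes: the receptor gene Egfr, the ligand genes spi and vn, the ligand protease gene rho, the transcription factor genes pnt and aop, and the inhibitor genes aos, kek1 and sty. They were taken by gene symbol from a table of 15135 features measured in polyA RNA from whole embryos of Drosophila melanogaster near stage 14. All 9 were found, and all 9 passed the low-value filter that left 10019 features for testing. The study compared 3 wild-type libraries with 3 libraries of spo mutants to find genes downstream of ecdysone, the insect steroid hormone. The spo gene encodes a cytochrome P450 of ecdysone synthesis. The spo allele, the strain background and the way mutant embryos were picked are not stated in the labels, which name no treatment. Nothing says whether libraries of 1 genotype came from separate collections, so a p-value here covers the spread among 6 libraries, which may be technical.

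In the fly, EGF receptor signaling is switched on mainly by how its ligands are made available. Spitz, the product of spi, is made as an inactive membrane protein, the chaperone Star carries it through the secretory pathway, and the intramembrane protease Rhomboid cuts it free. Vein, the product of vn, is a weaker secreted ligand that needs no such cut. The receptor acts through Ras, Raf and MAP kinase, which activates the ETS-domain activator Pointed and removes the ETS-domain repressor Yan, the product of aop. Several targets of the pathway are themselves inhibitors: Argos binds Spitz outside the cell, Kekkon1 binds the receptor in the membrane, and Sprouty acts inside the cell on the Ras cascade. In the embryo the pathway patterns the ventral ectoderm and the midline and helps to specify tendon cells, for which Vein from muscle is the ligand.

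Depth was worked out from the TPM values (reads per length of gene, scaled to an equal sum in each library), and the rebuilt library totals ran from 50170031 to 73656575 reads. The 9 genes held from 1308 reads, for kek1 in spo replicate 1, to 36494 reads, for aop in wild-type replicate 3. At 1308 reads, counting alone gives a coefficient of variation of 2.77%. The targeted gene spo stood at 0.696 to 0.944 TPM in wild type and at 0.306 to 0.610 TPM in the mutants, on 24 to 59 reads, and its ranges did not overlap. Spo replicate 2 stood apart from the other mutant libraries. The ecdysone response gene Hr46 was at 4.73, 33.7 and 4.72 TPM in spo replicates 1, 2 and 3, against 135 to 139.9 TPM in wild type. Some transcripts that mothers load into eggs also differed between the genotypes. The summed level of 8 such transcripts was 8.93 to 9.84 TPM in wild type and 147 to 186 TPM in spo. Mean levels of bcd, wisp, swa, twe, tor and BigH1 in spo were 20.1 to 38.1 times those in wild type. By contrast, gnu was only 45.3% higher in spo. The mean of png was 44.5% higher, with a limma adjusted p of 0.0781, which did not pass 0.05. Of the 8, bcd, swa, twe and tor were below 1 TPM in every wild-type library and so reached the tested set through spo alone, and no count of calls is drawn from the list. None of the 8 was at 0 in the group means. Their part in the differences below was not tested. A difference in embryo age between the genotypes cannot be told apart from genotype in this design. In whole embryos, fewer cells of a type and less RNA per cell cannot be told apart either.

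Differences between genotypes were small across the pathway. Of the 9 genes, vn, pnt and aos rose in spo, spi and kek1 fell, and Egfr, aop, sty and rho did not pass the threshold (limma on log2(TPM + 1), adjusted p below 0.05 over all tested features). That made 5 of 9 called, or 55.6%, where 61.7% of all tested features were called (33.9% higher and 27.9% lower). The same 5 genes had library ranges that did not overlap between genotypes, a property of 68.4% of all tested features (37.6% higher and 30.8% lower). Both shares lay near the background. The median size of the log2 difference, regardless of sign, was 0.17 over the 9 genes and 0.18 over all tested features. The largest, in kek1, was 0.49.

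**Figure D1:**
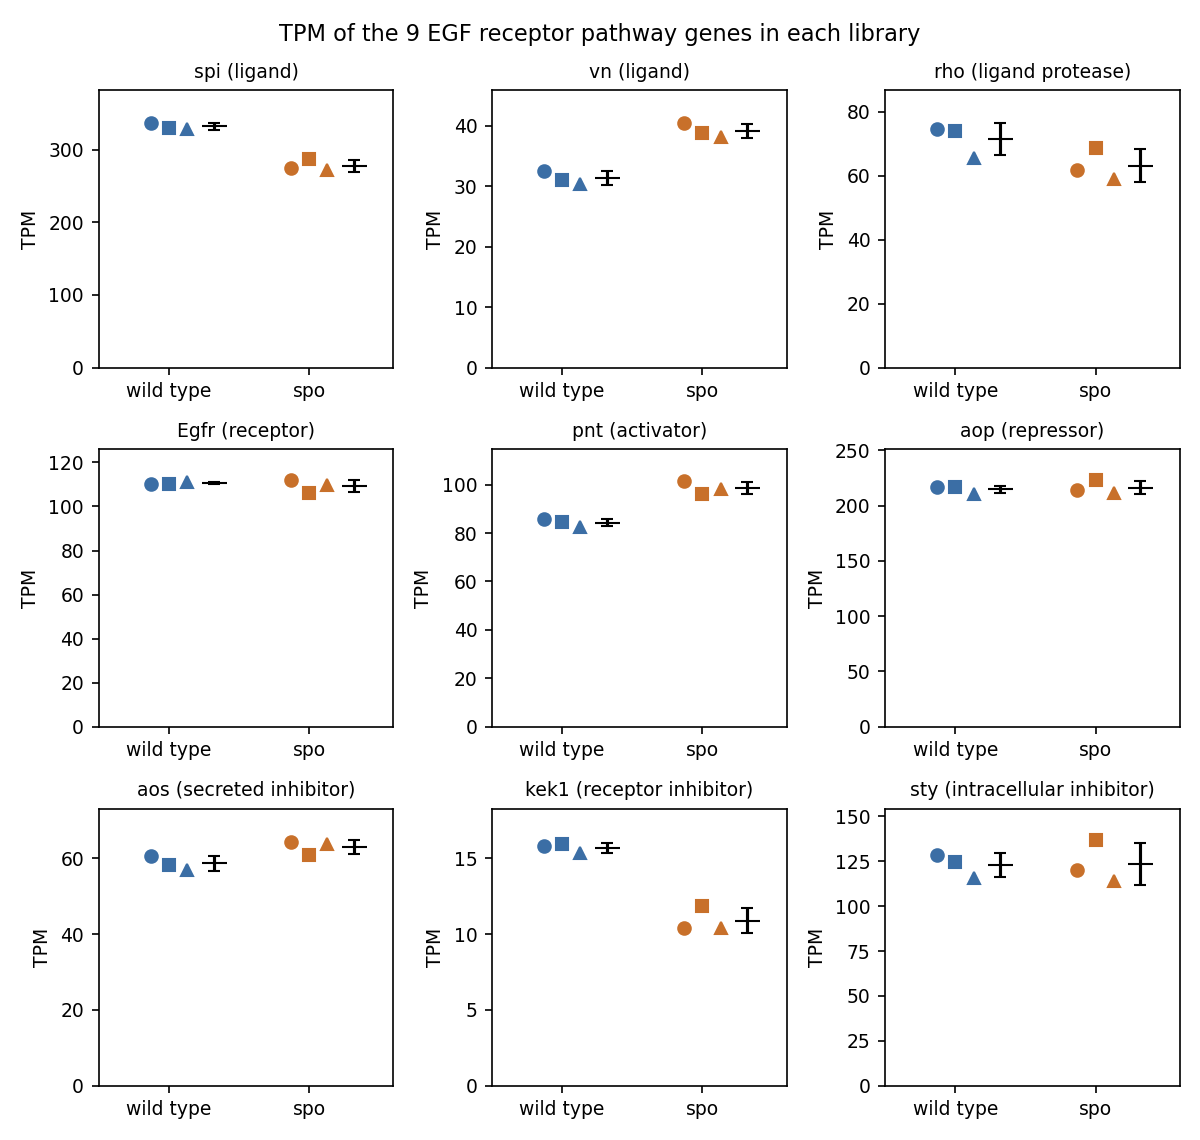
TPM of the 9 genes (y axes, from 0) in 3 wild-type libraries (blue) and 3 spo libraries (orange), with circles, squares and triangles for replicates 1, 2 and 3 and black bars for the mean and SD. The groups do not overlap for spi, vn, pnt, aos and kek1, and overlap for rho, Egfr, aop and sty.

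Both ligand genes changed, in opposite directions. spi (FBgn0005672, 2L, 19567900 to 19577315, minus strand) was at 337, 330.3 and 328 TPM in wild-type replicates 1, 2 and 3 and at 274, 287 and 272 TPM in the spo libraries. All 3 mutant libraries lay below all 3 wild-type libraries. The mean went from 332 ± 4.67 to 278 ± 7.94 TPM (SD, n = 3 here and below), 16.3% lower, with a log2 difference of -0.26 (SE 0.03, limma adjusted p = 0.000122). vn (FBgn0003984, 3L, 5813338 to 5845664, minus strand) was at 32.6, 31.0 and 30.4 TPM in wild type and at 40.4, 38.9 and 38.1 TPM in spo. Every spo library lay above every wild-type library. Its mean rose from 31.3 ± 1.15 to 39.1 ± 1.16 TPM, 25.1% higher, with a log2 difference of 0.31 (SE 0.04, limma adjusted p = 0.000322). With spi lower and vn higher, the ratio of vn to spi within a library rose. It went from 0.0943 ± 0.0021 to 0.141 ± 0.006, 1.50 times the wild-type value. Vein transcripts remained the rarer of the ligands in every library, at 0.0925 to 0.147 of the spi level.

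The protease gene rho (FBgn0004635, 3L, 1463811 to 1468944, plus strand) makes the enzyme that releases Spitz. It was at 74.7, 73.9 and 65.6 TPM in wild type and at 61.9, 68.7 and 58.9 TPM in spo, so that wild-type replicate 3 lay below spo replicate 2. The means were 71.4 ± 5.04 and 63.2 ± 5.04 TPM, and the log2 difference of -0.17 had a 95% interval from -0.34 to -0.01 and a limma adjusted p of 0.0605. Whether rho passed depended on the libraries and on the scaling and model. The adjusted p was 0.0229 without wild-type replicate 3 and 0.0111 without spo replicate 2. With all 6 libraries it was 0.0383 with median-of-ratios factors, 0.0419 with upper-quartile factors, 0.0217 with voom and 0.00531 with library quality weights. In the authors' deposited table, rho had a log2 fold change of -0.20 with a false discovery rate of 0.00644. The ratio of rho to spi overlapped between genotypes, at 0.215 ± 0.013 and 0.227 ± 0.012 (exact permutation test, two-sided p = 0.4).

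Egfr itself (FBgn0003731, 2R, 21522420 to 21559977, plus strand) held nearly the same level in all 6 libraries. It was at 110.3, 110.2 and 111 TPM in wild type and at 112, 106 and 109.6 TPM in spo. The log2 difference was -0.02, with a 95% interval from -0.07 to 0.04 (limma adjusted p = 0.567). Against this steady receptor level, the ratio of spi to Egfr went from 3.0 ± 0.05 to 2.54 ± 0.14 and that of vn to Egfr from 0.283 ± 0.011 to 0.358 ± 0.009. Neither ratio overlapped between the genotypes.

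Among the ETS-domain factors, the activator gene rose and the repressor gene did not pass the threshold. pnt (FBgn0003118, 3R, 23290231 to 23346167, minus strand) was at 85.7, 84.4 and 82.6 TPM in wild type and at 101, 96.3 and 98.2 TPM in spo. The spo libraries all lay above the wild-type libraries, with means of 84.3 ± 1.53 and 98.6 ± 2.52 TPM, 17.1% higher in spo, and a log2 difference of 0.22 (SE 0.03, limma adjusted p = 0.000294). The table holds 1 value for the gene, so its transcripts, 4 in the annotation, were not told apart. aop (FBgn0000097, 2L, 2156484 to 2178754, minus strand) was at 217, 217 and 211 TPM in wild type and at 214, 223 and 212 TPM in spo, and the groups overlapped. Its log2 difference was 0.01, with a 95% interval from -0.05 to 0.07 (limma adjusted p = 0.741). The aop gene shares 307 bases of exon with CG15382 on the opposite strand, which was at 3.21 to 4.55 TPM over the 6 libraries. Within each library the ratio of pnt to aop stood at 0.395, 0.389 and 0.392 in wild type and at 0.473, 0.431 and 0.464 in spo. The activator thus stayed below the repressor in every library, and its ratio was 1.16 times higher in spo.

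The inhibitor genes did not move together. kek1 (FBgn0015399, 2L, 12817000 to 12822787, minus strand), whose product is a leucine-rich repeat and immunoglobulin protein that binds the receptor, showed the largest difference of the 9. It was at 15.8, 16.0 and 15.3 TPM in wild type and at 10.4, 11.8 and 10.4 TPM in spo. The mean went from 15.7 ± 0.33 to 10.9 ± 0.83 TPM, 30.6% lower, with a log2 difference of -0.49 (SE 0.06, limma adjusted p = 0.000293). All 3 mutant libraries were below all 3 wild-type libraries, and the ratio of kek1 to Egfr was 0.142 ± 0.004 and 0.0998 ± 0.0102. In a table of whole-embryo RNA this was also the rarest of the 9 transcripts in both genotypes.

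aos (FBgn0004569, 3L, 16470386 to 16483650, minus strand), the secreted Spitz-binding inhibitor, was slightly higher in spo. It was at 60.8, 58.4 and 56.8 TPM in wild type and at 64.3, 60.9 and 63.9 TPM in spo. Spo replicate 2 lay just above wild-type replicate 1, so the groups barely separated. On the log2 scale it was 0.10 higher (SE 0.03, adjusted p = 0.0339 by limma). Leaving out wild-type replicate 2 or 3 raised the adjusted p to 0.0926 or 0.109, and leaving out spo replicate 1 or 3 raised it to 0.106 or 0.0961, so that the call was lost in each case. It was lost as well with TPM divided by median-of-ratios factors (0.0788), by upper-quartile factors (0.0579) and with voom (0.0591). In the authors' deposited table aos had a log2 fold change of 0.09 and a false discovery rate of 0.146. The ratio of aos to its target spi went from 0.177 ± 0.004 to 0.227 ± 0.013, with no overlap. Most of that change lay in spi, which was 16.3% lower in spo where aos was 7.53% higher.

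sty (FBgn0014388, 3L, 3401153 to 3424935, minus strand), which encodes the intracellular inhibitor Sprouty, varied more within a genotype than between genotypes. It was at 129, 124 and 115.4 TPM in wild type and at 120.1, 137 and 114 TPM in spo, and the group of wild-type libraries lay inside the range of the mutants. The log2 difference was 0.01, with a 95% interval from -0.16 to 0.17 (limma adjusted p = 0.931). Its coefficient of variation among spo libraries, 9.38%, was the highest of the 9 genes, and spo replicate 2 held the highest value of the 6 libraries.

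**Figure D2:**
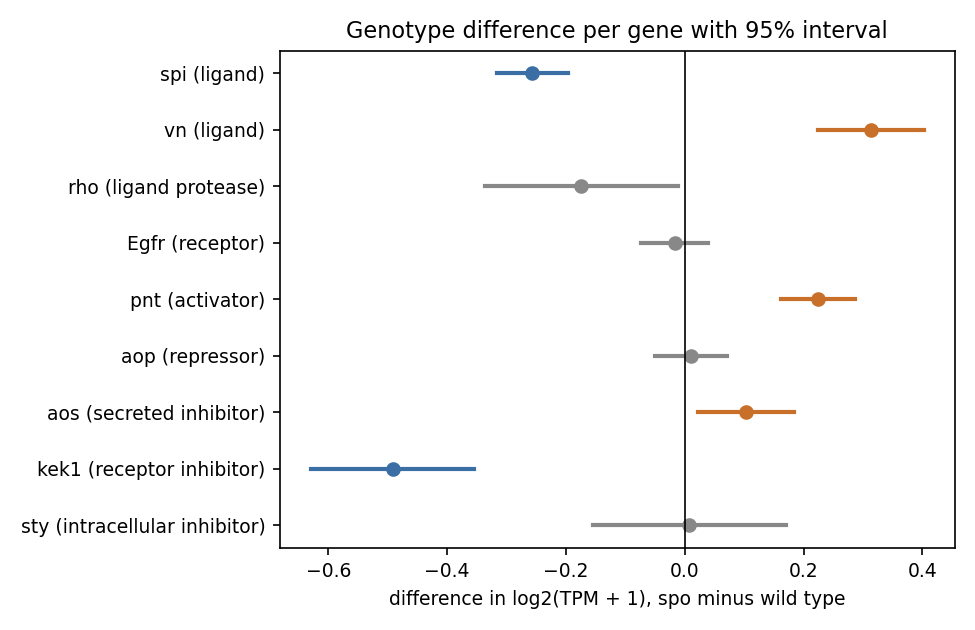
Difference in log2(TPM + 1), spo minus wild type (x axis), for each of the 9 genes, with dots for the estimate and bars for the 95% interval of limma; orange is higher, blue lower and grey not past the adjusted threshold. The intervals of vn, pnt and aos lie above 0 and those of spi and kek1 below it, while the interval of rho ends at -0.01.

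The authors' deposited table also called 5 of the 9 genes at a false discovery rate below 0.05, where it called 56.2% of the 10019 tested features. The genes were spi, vn, pnt, kek1 and rho, with aos falling out. Its log2 fold changes for the called genes were -0.28 for spi, 0.30 for vn, 0.21 for pnt and -0.55 for kek1.

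Levels per length can be set side by side within a library. In wild type the order from high to low was spi, aop, sty, Egfr, pnt, rho, aos, vn and kek1, and no neighbours in that order overlapped between their 3 libraries. By mean TPM the order in spo was the same, but rho, at 58.9 to 68.7 TPM, overlapped with aos, at 60.9 to 64.3 TPM. Their spo means were 63.2 and 63.1 TPM. Within libraries, aos lay above rho in spo replicates 1 (64.3 against 61.9 TPM) and 3 (63.9 against 58.9 TPM). Only in spo replicate 2 was rho above aos (68.7 against 60.9 TPM). In wild type, spi ranked 425th and kek1 6490th among the 10019 tested features by mean TPM.

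Ratios between members cancel the common scale of a library. Of the 8 ratios compared, 6 did not overlap between genotypes: those of spi, vn and kek1 to Egfr, of vn and aos to spi, and of pnt to aop. Each of these 6 had an exact two-sided permutation p of 0.1, the smallest that 3 against 3 libraries allow, and a p of 0.133 after Benjamini-Hochberg adjustment over the 8, so none could pass 0.05. The ratio of sty to Egfr overlapped, at 1.11 ± 0.06 in wild type and 1.13 ± 0.13 in spo (exact permutation p = 0.8).

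**Figure D3:**
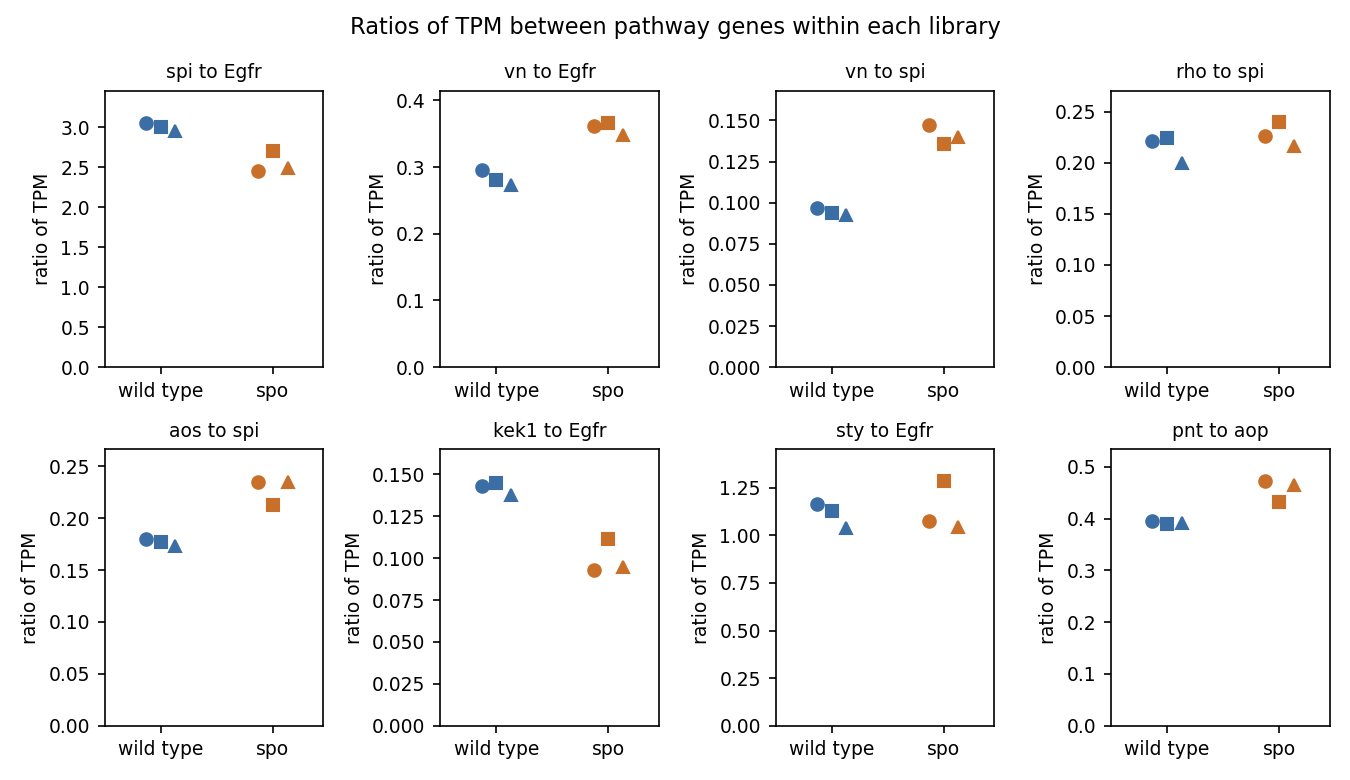
Ratio of the TPM of 2 pathway genes within each library (y axes, from 0) for 8 pairs, with wild-type libraries in blue, spo libraries in orange, and circles, squares and triangles for replicates 1, 2 and 3. The ratio of vn to spi is 0.0925 to 0.0966 in wild type and 0.136 to 0.147 in spo, and only the ratios of rho to spi and of sty to Egfr overlap.

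The library that stood apart at Hr46 was the mutant library nearest to wild type for some of these genes and furthest from it for others. For 4 of the 5 called genes, spi, pnt, aos and kek1, spo replicate 2 was the mutant library nearest to the wild-type mean on the log2(TPM + 1) scale. Over all 6185 called features, spo replicate 2 was nearest for 43.4%, replicate 1 for 26.7% and replicate 3 for 29.9%. kek1 differed from the wild-type mean by -0.55 in replicates 1 and 3 and by -0.38 in replicate 2. rho differed by -0.20, -0.05 and -0.27 in replicates 1, 2 and 3. sty lay 0.15 above the wild-type mean in replicate 2 and -0.03 and -0.10 from it in the others. aop and Egfr were also furthest from that mean in replicate 2, at 0.056 and -0.057. Without replicate 2, the log2 differences were -0.55 for kek1, -0.28 for spi, -0.24 for rho, 0.32 for vn, 0.24 for pnt and 0.13 for aos, all 6 past the threshold by limma. In that fit 6305 of 9814 tested features were called, against 6185 of 10019 (61.7%) with all libraries.

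**Figure D4:**
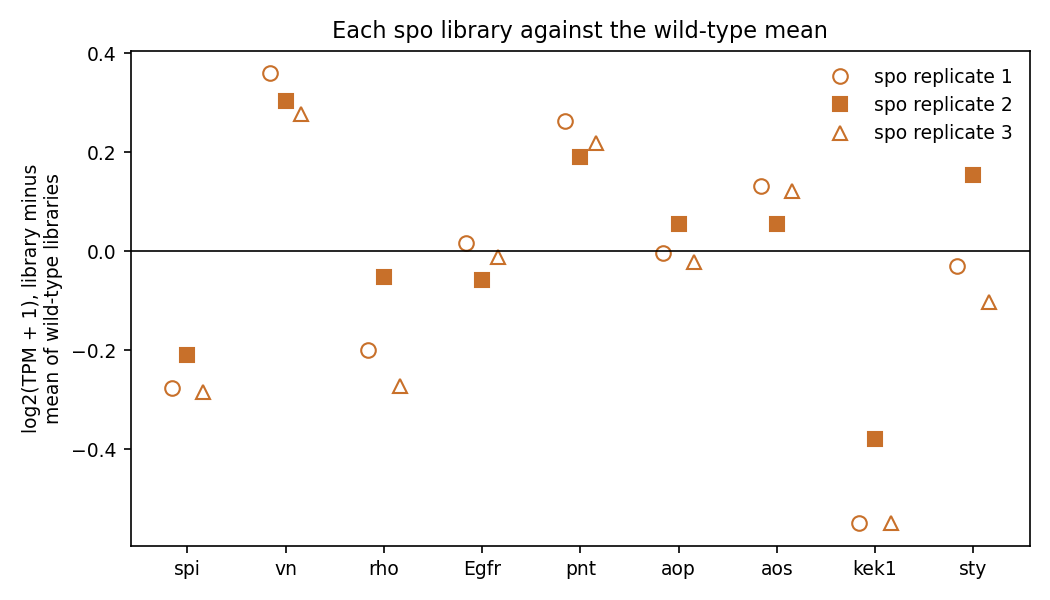
Difference in log2(TPM + 1) between each spo library and the mean of the wild-type libraries (y axis) for the 9 genes, with an open circle, a filled square and an open triangle for spo replicates 1, 2 and 3. The filled square lies nearer to 0 than the open symbols for spi, rho, pnt, aos and kek1. It lies above them for sty and aop and below them for Egfr.

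The other genes of the pathway moved in both directions. Of 70 listed genes, 64 passed the low-value filter, of which 24 rose, 19 fell and 21 did not pass, with a median log2 difference of 0.02, equal to that of all tested features. The called share was 67.2%, against the background of 61.7%. fred, kek3, kek4, Ets96B, trk and sev were too low to be tested, with group means of at most 0.636 TPM. Ets98B passed the filter through wild type alone, ru mainly through wild type and tor through spo alone, so their place among the tested genes followed from the genotype that was higher. The counts and the called share above include these genes, as do the counts of their lists below.

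Of the 7 genes of ligands and ligand processing, 2 rose and 3 fell. grk, the ligand of the ovary, rose from 2.54 ± 0.28 to 6.51 ± 0.24 TPM (log2 difference 1.09, limma adjusted p = 2.64e-05), alongside the maternal transcripts given above. The 3 genes that fell are low-level members of the rhomboid family: ru from 1.80 ± 0.20 to 0.897 ± 0.141 TPM, stet from 7.42 ± 0.26 to 4.90 ± 0.20 TPM and rho-5 from 8.62 ± 0.23 to 4.70 ± 0.51 TPM. The Spitz-like ligand gene Krn, the other riser, went from 96.7 ± 3.60 to 111 ± 4.29 TPM. The Spitz chaperone gene S, at 133 ± 1.98 and 137 ± 3.07 TPM, did not pass (adjusted p = 0.243), nor did rho-4 (0.086).

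In the cascade from receptor to MAP kinase, 5 of 12 genes rose and 3 fell. csw, a phosphatase that acts downstream of receptor tyrosine kinases, rose from 22.0 ± 0.73 to 30.9 ± 3.46 TPM. ave, a scaffold in Raf activation, rose from 41.5 ± 0.60 to 48.7 ± 0.66 TPM, and rl, the MAP kinase itself, from 29.7 ± 1.48 to 34.1 ± 2.02 TPM. rl no longer passed once wild-type replicate 3 was left out (adjusted p = 0.0567). The adaptor gene Shc fell from 79.5 ± 1.11 to 69.3 ± 2.10 TPM. Ras85D, the fly Ras gene, did not pass, at 275 ± 2.65 and 266 ± 9.81 TPM.

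Of 13 tested inhibitors outside the 9 genes, 6 rose and 3 fell. Where kek1 fell, its relative kek2 rose, from 14.8 ± 0.60 to 18.7 ± 0.83 TPM, as did kek6, which went from 2.84 ± 0.04 to 4.15 ± 0.39 TPM. kek5, the most abundant of the tested relatives, did not pass, at 127 ± 0.54 and 124 ± 5.87 TPM (adjusted p = 0.386). Cbl, a ubiquitin ligase for the receptor, rose from 57.9 ± 1.71 to 70.3 ± 7.14 TPM and the Ras GTPase activator gene RasGAP1 from 68.4 ± 1.01 to 78.3 ± 5.38 TPM.

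Nuclear genes showed 4 rises and 5 falls among 11 tested. ttk, a repressor of neural fate, fell from 451 ± 8.65 to 262 ± 28.1 TPM (log2 difference -0.79, limma adjusted p = 6.8e-05). sina, a ubiquitin ligase that promotes removal of the ttk product, rose from 99.7 ± 4.15 to 136 ± 3.14 TPM. The ETS-domain gene Ets65A fell from 20.9 ± 0.80 to 12.8 ± 1.44 TPM. Ets98B, also of that family, stood at 1.23 ± 0.20 and 0.760 ± 0.062 TPM and passed as lower, but not without spo replicate 1 (adjusted p = 0.0582). It missed the low-value filter, and so was not tested, when any wild-type replicate was left out and with a filter of 5 TPM.

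Other receptor tyrosine kinases and their ligands, which share the Ras cascade, split 5 up and 4 down among 15. tor, a maternal transcript, rose from 0.482 ± 0.067 to 15.0 ± 1.90 TPM. btl, the FGF receptor of the trachea, rose from 47.4 ± 0.98 to 64.4 ± 8.04 TPM. The summed level of the 4 tracheal markers trh, btl, dys and Gasp was 199 to 205 TPM in wild type and 139 to 149 TPM in spo. The markers other than btl fell. Most of the fall in the sum was Gasp, from 79.7 to 21.6 TPM, with trh at 61.1 and 51.9 TPM and dys at 13.3 and 7.86 TPM. InR, the insulin receptor, fell from 85.9 ± 1.65 to 59.0 ± 5.73 TPM and boss from 6.0 ± 0.33 to 4.46 ± 0.15 TPM.

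Genes of the ventral ectoderm and midline, where the pathway acts early, showed small differences. Of 6, the neural patterning gene vnd rose from 15.3 ± 0.26 to 17.9 ± 0.18 TPM. The log2 differences of oc and sli were -0.12 and 0.09. Both passed. oc lost its call when any library other than spo replicate 2 was left out (adjusted p up to 0.0923), and sli when wild-type replicate 1, spo replicate 1 or spo replicate 3 was left out (up to 0.0631) and with median-of-ratios factors (0.0538). ind, Dr and sim did not pass.

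**Figure D5:**
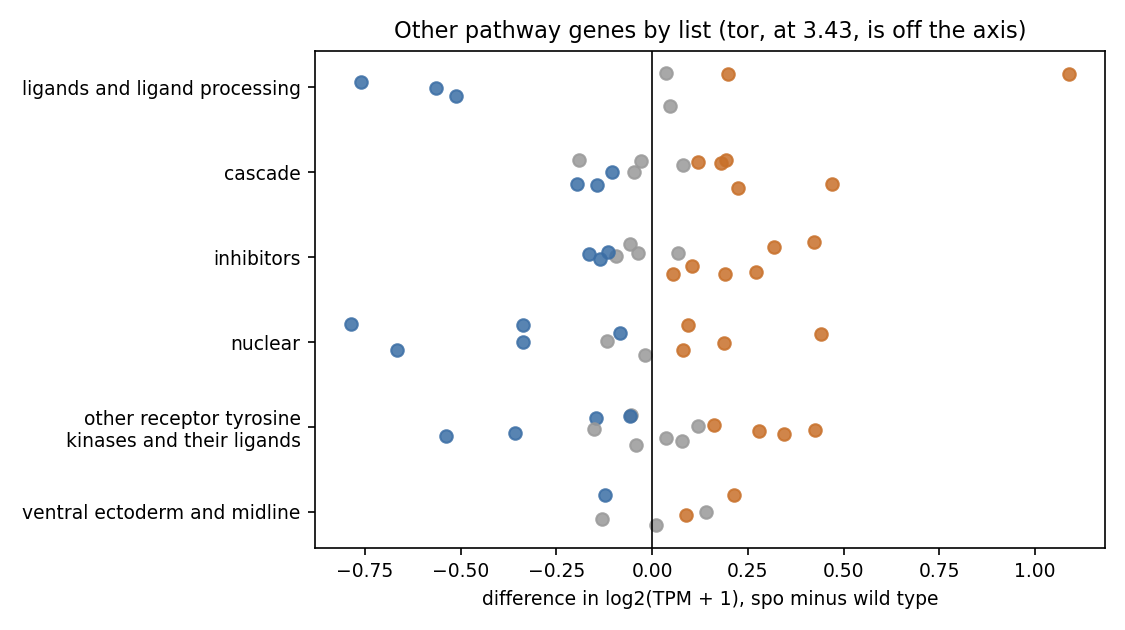
Difference in log2(TPM + 1), spo minus wild type (x axis), of the tested genes of 6 pathway lists (rows, with vertical scatter only for legibility); orange is higher, blue lower and grey not past the adjusted threshold. Every list holds genes on both sides of 0, from -0.79 for ttk to 1.09 for grk, with tor at 3.43 off the axis.

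Marker levels of cell types in which the pathway acts were compared in the same libraries. Of the 5 tendon cell markers, sr, the tendon cell transcription factor gene, fell from 18.7 ± 0.54 to 14.4 ± 1.30 TPM, Tsp and how fell, shot rose and alphaTub85E did not pass. Their summed level was 513 to 537 TPM in wild type and 452 to 514 TPM in spo. Most of that sum was how, at 321 ± 14.2 and 271 ± 34.5 TPM, with library ranges that overlapped between genotypes. The 3 midline markers summed to 361 to 366 and 363 to 380.3 TPM, with sli higher, wrapper lower and sim not past the threshold. Most of that sum was sli, at 301 ± 2.41 and 320 ± 9.27 TPM. The 3 oenocyte markers summed to 296 to 307 and 269.8 to 298 TPM, with Cyp4g1 lower and svp and vvl not past the threshold. Most of that sum was vvl, at 259 ± 4.98 and 242 ± 13.97 TPM, while Cyp4g1 was at 5.21 ± 0.32 and 2.68 ± 0.125 TPM. The 4 neuron and chordotonal organ markers summed to 238 to 252 TPM in wild type and 174 to 211 TPM in spo. Most of that sum was elav, which fell, as did nSyb, while ato rose from 2.08 ± 0.41 to 5.09 ± 1.06 TPM and nompC did not pass. The 4 amnioserosa markers summed to 211 to 216 and 208 to 218 TPM, with Doc1 and Doc2 higher, peb lower and Kr not past the threshold. The 3 midgut markers summed to 68.5 to 70.9 and 78.5 to 85.0 TPM, with lab and Mal-A1 higher and GATAe not past the threshold. Among the 5 hemocyte markers, which summed to 151 to 153 and 153 to 156 TPM, crq rose, Pxn and srp fell, and Hml and NimC1 were under 0.4 TPM in the mean of either genotype. None of the other markers was at 0. Whether the share of any of these cells moved the 9 genes was not tested.

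Genes with the pattern most like that of kek1 were sought over the 6 libraries, as the smallest root mean square difference of log2(TPM + 1) after each gene's mean was subtracted. They were HGTX, a homeobox gene of the nervous system (0.0062, with means of 46.4 TPM in wild type and 32.6 TPM in spo), Ubi-p5E (0.0132) and CG32699 (0.0152). Within a difference of 0.1 lay 456 features. The nearest to Egfr were CG10576 (0.0063), the segment polarity gene en (0.0081, with means of 59.5 and 58.9 TPM) and Uhg7 (0.0082), out of 4329 features within 0.1.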

How the data were processed

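Whole-embryo RNA was extracted with a column kit and sequenced after polyA selection as 3 wild-type and 3 spo libraries, per the labels' protocols. The authors deposited TPM for 15135 features, and a table of their own comparison with a p-value, a false discovery rate, a likelihood ratio score, a log2 fold change and a mean log2 CPM per feature. Tools named in the submitters' processing notes are edgeR, featureCounts, Subread, STAR 2.5.3a and FastQC 0.11.2, with dm6 as the genome. Neither the strand setting nor the annotation release is stated there. As TPM is relative, a rise of some transcripts lowers all others.

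Features reaching 1 TPM in 3 or more libraries were kept (10019). Genotype was the only term of a fit to log2(TPM + 1) by limma 3.58.1 (R 4.3.3, trend on mean level), which understates the change of low genes. P-values were adjusted over all kept features (Benjamini-Hochberg, threshold 0.05). Reads were rebuilt from the steps of the TPM values and exon lengths of the Ensembl annotation in dm6 coordinates. With a tolerance of 0.0001, the annotated length gave whole reads for 94.6% of features with a length, all 9 genes included. On simulated data, 76 of 100 tested genes changed by 0.5 and 96 of 98 changed by 1 were recovered, and 9 of 9729 unchanged genes were called. The simulation had 200 changed genes and a dispersion of 0.0005. In the real data, 61.7% of features were called and no member differed by more than 0.49. The coefficient of variation of sty among spo libraries was 9.38%. The simulated rates therefore do not describe the tests of the 9 genes.

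The 9 genes and the gene lists were chosen with earlier results of these data known. Named genes are all 9, the targeted gene spo, Hr46, and up to 4 called genes per pathway list with the largest log2 difference, with others named as list members by value. Krn, Ras85D and other list members outside that rule were chosen after their values were seen. Alternatives were no filter, a filter of 5 TPM in 3 libraries, a pseudocount of 0.1, median-of-ratios or upper-quartile factors, the replicate number as a block, voom on rebuilt reads, library quality weights and leaving out each library in turn. No sequences are shown.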

Additional observations from a re-analysis of the deposited data

How the results depend on the processing

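Under 14 alternatives, spi (-0.28 to -0.24), vn (0.29 to 0.34), kek1 (-0.55 to -0.46) and pnt (0.20 to 0.24) kept direction and call. aos kept its direction (0.08 to 0.13) and lost its call in 7, and rho kept its direction (-0.24 to -0.13) and gained a call in 7, among them median-of-ratios factors (adjusted p = 0.0383), upper-quartile factors (0.0419) and voom (0.0217). The causes were not tested. The members called numbered from 4 to 6 and all called features from 5288 to 6852, while the number tested also changed. Without wild-type replicate 2, 4 members and 5288 of 9820 tested features were called. With library quality weights, 6 members and 6852 of 10019 were called, and with no filter 5 members and 6560 of 15135. Genes near 0 changed sign without ever passing. sty was at -0.015 with median-of-ratios factors and with voom and at -0.049 with library quality weights, aop at -0.012, -0.012 and -0.009 in the same fits, and Egfr at 0.004 with library quality weights. Leaving out 1 library gave -0.066 to 0.062 for sty, -0.012 to 0.026 for aop, -0.034 to 0.003 for Egfr and 0.952 to 1.06 for the spo over wild-type value of the sty to Egfr ratio. Of 313 refits of 23 other named genes, 11 lost the call, in 4 genes, and 0 changed sign. Ets98B, tor, ru and kek6 missed the filter in some alternatives and were refitted in 10, 11, 13 and 13 of the 14. Higher calls made 54.9% of calls, 49.9% with median-of-ratios factors. With the replicate number as a block, 6086 of 10019 tested features and 6 of the 9 genes were called, rho among them (adjusted p = 0.00971). Libraries of different genotype with the same number had deviations from their group means that correlated at -0.0275, 0.0450 and 0.129. Those with different numbers correlated at -0.107 to 0.0709, so the value of 0.129 was the highest of all. The main fit treated the libraries as unpaired.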

Other observations

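Several of the 9 genes hold other features within their spans. An intron of spi holds 3 hairpins of the mir-2 family on the same strand, and the row of mir-2a-2 was at 89.0, 103 and 95.3 TPM in wild type and at 55.0, 78.6 and 64.7 TPM in spo, on 86 to 218 reads. Its log2 difference was -0.54 (limma adjusted p = 0.00636), in the same direction as spi itself. The rows of mir-2a-1 and mir-2b-2 rest on at most 8 reads per library, and that of mir-2282, in an intron of sty, on at most 7. These rows count reads in polyadenylated RNA over hairpins and do not measure mature miRNAs.

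The rho gene lies within Ptp61F, a protein tyrosine phosphatase gene on the opposite strand, with no exon in common. Ptp61F rose from 51.4 ± 0.98 to 70.0 ± 2.65 TPM (SD, n = 3, limma adjusted p = 3.74e-05). aos lies within CG33158 on the opposite strand, which fell from 17.7 ± 0.57 to 16.0 ± 0.38 TPM (limma adjusted p = 0.0278). CG30283, in an intron of Egfr on the opposite strand, rose from 7.88 ± 0.48 to 9.40 ± 0.64 TPM (limma adjusted p = 0.0215) while Egfr did not pass. CG15382, which shares exon bases with aop, fell from 4.35 ± 0.20 to 3.47 ± 0.36 TPM (limma adjusted p = 0.0224). The strand setting of the counting is not stated, and whether reads from Egfr or aop entered the rows of CG30283 and CG15382 was not tested.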
